A study of Homo sapiens with 51 samples.

Results

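The mitosis genes are 38 human genes that code for proteins of cell division, taken by name from the 24033 gene symbols of the deposited expression table. All 38 were found, held by every library and tested in every comparison, so none was lost to the filter on low values. They fall into 11 roles: a marker of cycling cells (MKI67), cyclins and their kinase (CCNA2, CCNB1, CCNB2, CDK1), mitotic kinases (PLK1, AURKA, NEK2, TTK, BUB1), the chromosomal passenger complex (AURKB, BIRC5), the spindle checkpoint (BUB1B, MAD2L1), kinetochore and centromere (CENPA, CENPE, CENPF, NDC80, NUF2), kinesin motors (KIF11, KIF14, KIF18A, KIF20A, KIF23, KIF2C, KIF4A), spindle assembly (TPX2, NUSAP1, DLGAP5, HMMR, ASPM, PRC1), cytokinesis (ANLN, ECT2), anaphase ubiquitination and securin (CDC20, UBE2C, PTTG1) and chromosome topology (TOP2A). The list names genes by function and uses no measured value, but was drawn up with earlier results of these data known.

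Total RNA was sequenced from 51 libraries in 17 groups of 3 of 2 cell lines. HMLE is a line of human mammary epithelial cells, immortalised with the telomerase catalytic subunit and the large T antigen of a simian virus, a protein that binds the retinoblastoma and p53 proteins. HMLE-TWIST1 is the same line made to overexpress TWIST1, a transcription factor of the epithelial-mesenchymal transition. The SUV39H1/SUV39H2 knockdown groups (Dicer-substrate siRNA, DsiRNA) and their scramble siRNA groups were each made in HMLE-TWIST1 and in HMLE cells, and were taken after 48 h of transfection (day 2) or after 48 h followed by 48 h in fresh medium (day 4). Chaetocin, a fungal metabolite used as an inhibitor of SUV39 histone H3 lysine 9 methyltransferases, was given to HMLE-TWIST1 cells at 100, 150, 200 and 500 nM for 48 h (day 2), or at 80 nM for 15 h followed by 48 h without it (day 4, the washout). DMSO groups of HMLE-TWIST1 and of HMLE cells were taken after 48 h (day 2), or after 15 h and 48 h of fresh medium (day 4). Whether the 3 libraries of a group came from separate cultures, and how many clones a line holds, is not given in the sources used here, so p-values measure the spread between these libraries, which may be technical.

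A dividing cell makes most of these proteins late in the cycle. Cyclin B with CDK1 drives entry into mitosis, Aurora and Polo-like kinases build the spindle, kinetochore proteins tie chromosomes to it, and the checkpoint holds back the anaphase-promoting complex until every chromosome is attached. CDC20 then activates that complex, which marks securin and the cyclins for destruction, and motors and scaffold proteins divide the cell. Their genes are known as a group that is repressed in resting cells by the DREAM complex and activated in G2 by the B-MYB-MuvB complex and FOXM1, through a promoter element called the CHR and the CCAAT boxes bound by NF-Y. In bulk RNA, fewer dividing cells and less of these RNAs per dividing cell cannot be told apart, and this holds for every difference given here.

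The RefSeq promoter table (build GRCh38.p14, 250 bases before to 50 bases from each start) held 37 promoters of 33 of the 38 genes. The others, UBE2C, BIRC5, TTK, TPX2 and AURKA, were not matched. CDK1, ECT2, AURKB and PTTG1 had 2 overlapping promoters each, so 1 site can count in both. On either strand, TTTGAA, 1 form of the CHR, was found in 26 of the 37 promoters (70.3%), against 15.2% of all 35116 promoters in the table. TTTAAA, the other form searched, was in 15 (40.5%, against 12.2% of all), and CCAAT was in 30 (81.1%, against 34.6%). A CHR form together with CCAAT was in 25 of the 37 (67.6%), against 9.3% of all promoters. The E2F-type letters TTTCGCGC were in 2 promoters (5.4%, against 0.5%), both of CDK1 and holding the same site. TTTGGCGC was in 1 (2.7%, against 0.7%). These are matches of letters, not binding sites. The 120 bases before the start are shown for 8 genes that recur in the results. CCNB2, MKI67 and HMMR show the TTTGAA form, CCNB1 and KIF20A the TTTAAA form, and PLK1 both. ECT2 had the smallest difference between lines at day 4, and CENPE the least even values. Capitals mark these CHR forms and the CCAAT box, which reads ATTGG where it lies on the other strand. In MKI67 a TTTGAA and an ATTGG overlap, and in HMMR a CCAAT and an ATTGG do. The stretches lie at CCNB2 chr15:59105026-59105145 (+ strand), PLK1 chr16:23678769-23678888 (+ strand), MKI67 chr10:128126424-128126543 (- strand), HMMR chr5:163460512-163460631 (+ strand), CCNB1 chr5:69167030-69167149 (+ strand), KIF20A chr5:138178992-138179111 (+ strand), ECT2 chr3:172750606-172750725 (+ strand), CENPE chr4:103198344-103198463 (- strand).
CCNB2: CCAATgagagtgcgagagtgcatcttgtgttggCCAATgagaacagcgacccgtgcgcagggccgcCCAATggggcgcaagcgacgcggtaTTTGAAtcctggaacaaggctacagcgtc
PLK1: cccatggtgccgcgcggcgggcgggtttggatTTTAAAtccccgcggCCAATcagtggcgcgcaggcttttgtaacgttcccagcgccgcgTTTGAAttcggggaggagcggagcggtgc
MKI67: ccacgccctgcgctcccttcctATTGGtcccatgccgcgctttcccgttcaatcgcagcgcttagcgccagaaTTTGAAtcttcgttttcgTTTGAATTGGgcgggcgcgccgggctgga
HMMR: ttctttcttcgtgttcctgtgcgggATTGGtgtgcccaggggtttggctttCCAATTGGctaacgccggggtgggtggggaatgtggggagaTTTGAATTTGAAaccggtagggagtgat
CCNB1: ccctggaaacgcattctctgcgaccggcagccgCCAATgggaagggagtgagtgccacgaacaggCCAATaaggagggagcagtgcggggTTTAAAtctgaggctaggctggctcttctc
KIF20A: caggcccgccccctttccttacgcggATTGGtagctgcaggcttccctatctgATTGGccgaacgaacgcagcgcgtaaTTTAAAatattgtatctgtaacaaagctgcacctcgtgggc
ECT2: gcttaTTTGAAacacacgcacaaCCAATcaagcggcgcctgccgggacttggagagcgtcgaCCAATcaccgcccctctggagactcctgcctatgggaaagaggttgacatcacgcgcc
CENPE: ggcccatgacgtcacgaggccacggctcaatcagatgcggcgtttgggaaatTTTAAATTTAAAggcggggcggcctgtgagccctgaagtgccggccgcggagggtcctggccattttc

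The levels are CPM, a gene's reads scaled to the size of its library, computed from whole reads recovered from the deposited log2 RPKM values, with 1 scaling over all 51 libraries. Libraries held 7897060 to 15662385 reads in listed genes. TWIST1 had 217 to 659 CPM in the HMLE-TWIST1 libraries and 4.79 to 15.6 CPM in the HMLE libraries. The summed epithelial markers CDH1, EPCAM, KRT5, KRT14 and TP63 reached 0.909 to 8.46 CPM in HMLE-TWIST1 libraries and 4840 to 11700 CPM in HMLE libraries, and the summed mesenchymal markers VIM, CDH2, FN1 and ZEB1 5460 to 29600 CPM in HMLE-TWIST1 libraries and 754 to 3280 CPM in HMLE libraries. Only listed markers held by all libraries were summed. The leukocyte sum, of 1 of 5 listed genes (CD68), was at most 3.75 CPM in any library. The endothelial sum, of 2 of 4 listed genes (VWF and KDR), was at most 10.4 CPM. The adipocyte sum, of 2 of 3 listed genes (FABP4 and PLIN1), reached 9.01 to 447 CPM in HMLE libraries and at most 2.30 CPM in HMLE-TWIST1 libraries. This gap was that of FABP4. PLIN1 overlapped, at 0.338 to 1.47 CPM in HMLE and 0.181 to 1.71 CPM in HMLE-TWIST1 libraries. The part of this sum in the results was not tested.

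Summed over the 38 genes, the level spanned a wide range, and the groups fell into steps whose libraries did not overlap. The highest step held the chaetocin groups, with means of 14230 ± 583 CPM after 80 nM and washout, and 15610 ± 1970, 15350 ± 2270, 14680 ± 1450 and 13930 ± 1010 CPM at 100, 150, 200 and 500 nM (SD, n = 3 each). The next held 6 groups whose neighbours overlapped: HMLE-TWIST1 scramble day 2 (10560 ± 170 CPM), HMLE-TWIST1 DMSO day 4 (9797 ± 996 CPM), HMLE-TWIST1 knockdown day 2 (9740 ± 579 CPM), HMLE-TWIST1 scramble day 4 (9100 ± 581 CPM), HMLE-TWIST1 DMSO day 2 (9095 ± 916 CPM) and HMLE DMSO day 2 (8945 ± 326 CPM). Below these stood, each apart from its neighbours, HMLE-TWIST1 knockdown day 4 (6873 ± 229 CPM), HMLE knockdown day 2 (4394 ± 621 CPM), HMLE scramble day 2 (3061 ± 248 CPM) and HMLE DMSO day 4 (2198 ± 519 CPM). The lowest were HMLE knockdown day 4 (807.7 ± 65.4 CPM) and HMLE scramble day 4 (741 ± 103 CPM), which overlapped. The groups at 100 to 500 nM, the siRNA groups and the DMSO and 80 nM groups lie in 3 separately processed parts of the table, so steps between parts were not tested. Each of the 38 genes had its highest group mean in a chaetocin group. The lowest group mean was in HMLE scramble day 4 for 29 genes and in HMLE knockdown day 4 for the other 9. These highest and lowest means were taken across the parts, and the same counts over all genes were not made.

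**Figure D1:**
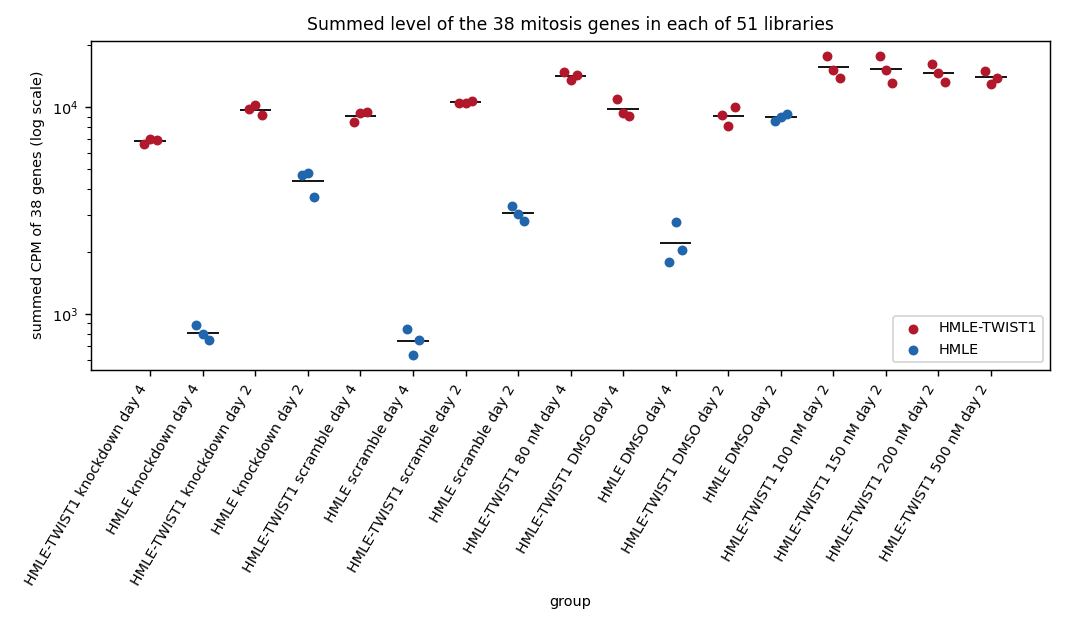
Summed CPM of the 38 genes in each of 51 libraries (log axis), by group; points are libraries, black lines group means, red HMLE-TWIST1 and blue HMLE. The chaetocin groups lie between 12930 and 17750 CPM, and HMLE day 4 libraries of the scramble group between 634 and 839.7 CPM.

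Compared per length, on the deposited RPKM scale, TOP2A (topoisomerase II alpha, which untangles replicated DNA) was the highest of the 38 in HMLE-TWIST1 DMSO day 2 cells at 170.3 ± 22.0 RPKM (SD, n = 3), followed by the spindle proteins NUSAP1 at 126 ± 8.72 and TPX2 at 111 ± 15.1 RPKM. The lowest was the centromeric histone CENPA at 12.7 ± 1.55 RPKM. In HMLE scramble day 4 cells the securin gene PTTG1 led at 19.8 ± 2.20 RPKM and AURKB was last at 0.510 ± 0.0697 RPKM. RPKM values of separately processed parts of the table were scaled apart, so the order of genes within a group is given and not a change between these groups. PTTG1 and KIF4A have close retrocopies elsewhere in the genome, so the share of their reads counted is uncertain.

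**Figure D2:**
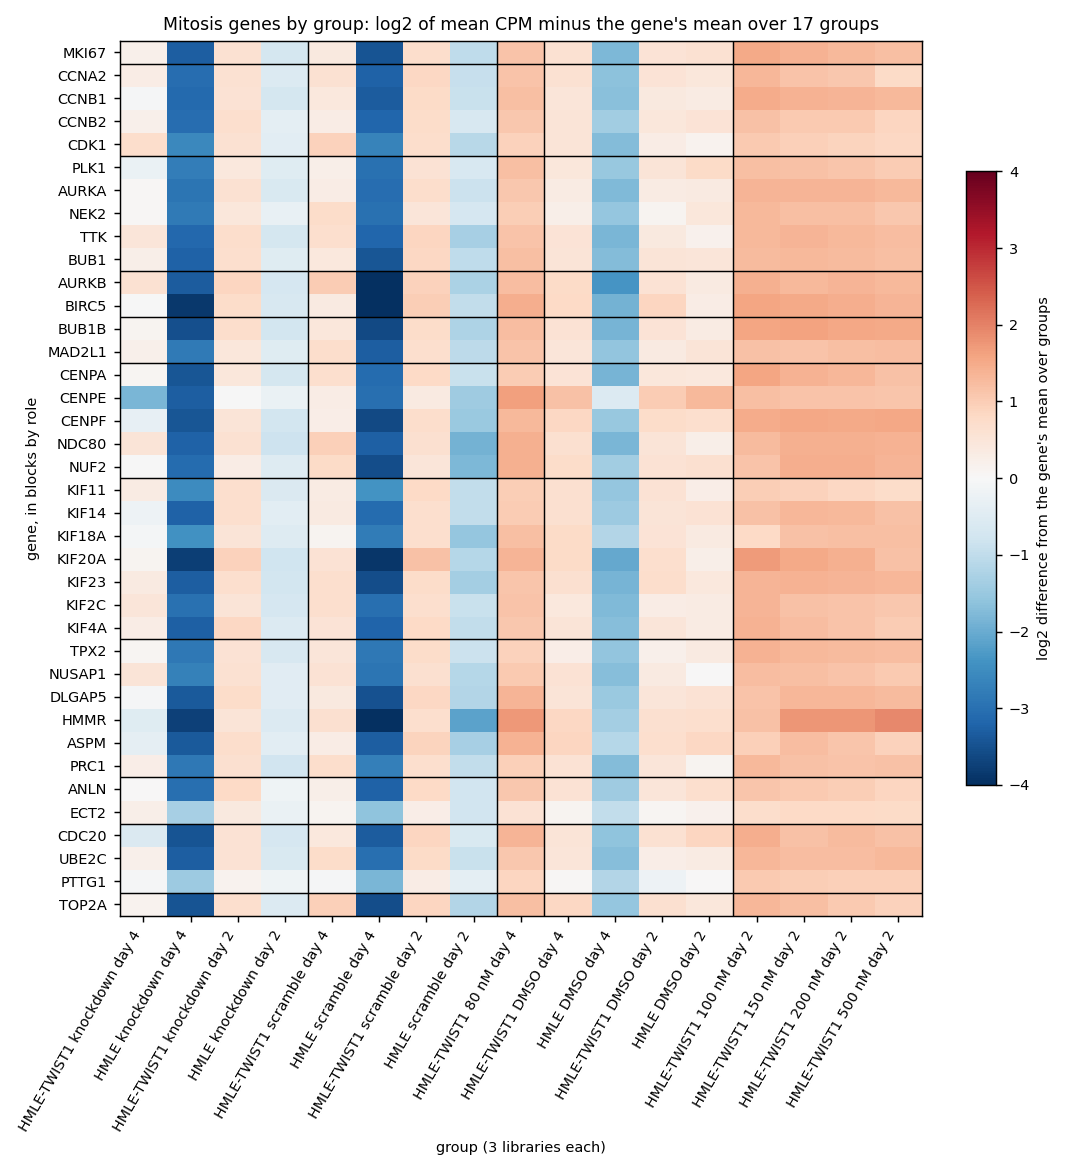
Each of the 38 genes (rows, in blocks by role) in 17 groups (columns, 3 libraries each); colour is log2 of the group's mean CPM minus the gene's mean over groups. The darkest blue columns are HMLE knockdown and HMLE scramble of day 4, and each gene's highest value lies in 1 of the 5 chaetocin columns.

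The comparison of HMLE-TWIST1 with HMLE cells in DMSO asked how mitosis genes differ with TWIST1 overexpression, and the difference depended on the day. At day 4 all 38 genes were higher in HMLE-TWIST1 cells (38 of 38 past an adjusted p of 0.05, while 33.5% of all genes tested were called higher), with a median log2 difference of 2.18, or 4.52-fold, and a range of 1.05 (ECT2) to 3.12 (AURKB). At day 2, 1 of 38 passed (NUSAP1, higher; 24.1% of all genes were called higher and 23.2% lower), and the median difference was -0.032.

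MKI67, whose Ki-67 protein coats mitotic chromosomes, had 1796, 1342 and 1353 CPM in HMLE-TWIST1 libraries of day 4, against 243, 339 and 266 CPM in HMLE libraries. At day 2 the MKI67 levels were 1467, 1334 and 1495 CPM in HMLE-TWIST1 libraries, against 1441, 1493 and 1541 CPM in HMLE libraries. The lines were thus far apart at day 4 and overlapped at day 2: the log2 difference was 2.37 ± 0.14 (SE, adjusted p = 6.9e-08) at day 4 and -0.075 ± 0.14 (SE, adjusted p = 0.69) at day 2. CCNB1 codes for cyclin B1, the partner of CDK1 at mitotic entry. It had 248, 228 and 210.3 CPM in HMLE-TWIST1 libraries of day 4, against 45.1, 63.6 and 44.4 CPM in HMLE libraries. At day 2 CCNB1 had 217, 178 and 248 CPM in HMLE-TWIST1 libraries, against 198, 205 and 215 CPM in HMLE libraries. The HMLE-TWIST1 libraries were all above the HMLE libraries at day 4, and the lines overlapped at day 2. PLK1, the Polo-like kinase of spindle and cytokinesis, had 78.1, 73.0 and 62.1 CPM in HMLE-TWIST1 libraries of day 4, against 13.4, 24.4 and 16.5 CPM in HMLE libraries. At day 2 PLK1 had 75.2, 63.1 and 85.9 CPM in HMLE-TWIST1 libraries, against 81.4, 92.5 and 87.7 CPM in HMLE libraries. Its log2 difference was 1.96 ± 0.18 (SE, adjusted p = 2.7e-06) at day 4 and -0.25 ± 0.16 (SE, adjusted p = 0.22) at day 2. By role, the median log2 difference at day 4 was 2.05 over the 5 mitotic kinases and 2.18 over the 4 cyclin and CDK1 genes.

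AURKB, the kinase of the chromosomal passenger complex that corrects faulty attachments, showed the widest gap. It had 40.7, 32.9 and 31.4 CPM in HMLE-TWIST1 libraries of day 4, against 2.14, 5.35 and 4.52 CPM in HMLE libraries. At day 2 AURKB had 35.7, 24.9 and 32.8 CPM in HMLE-TWIST1 libraries, against 23.8, 25.9 and 29.3 CPM in HMLE libraries. The log2 difference at day 4 was 3.12 ± 0.27 (SE, adjusted p = 3.8e-06). AURKB overlapped between the lines at day 2 (0.21 ± 0.21 SE, adjusted p = 0.44). BIRC5 (survivin), of the same complex, had the largest positive difference at day 2, with 111, 95.9 and 120 CPM in HMLE-TWIST1 libraries, against 67.0, 80.0 and 74.2 CPM in HMLE libraries; the groups did not overlap, and its log2 difference of 0.54 ± 0.23 (SE, adjusted p = 0.064) did not pass over all genes. BUB1B, the checkpoint protein BubR1, had 223, 183 and 179 CPM in HMLE-TWIST1 libraries of day 4, against 28.0, 45.0 and 33.6 CPM in HMLE libraries. At day 2 BUB1B had 186, 176 and 204 CPM in HMLE-TWIST1 libraries, against 149, 170.1 and 168 CPM in HMLE libraries. Its log2 difference was 2.43 ± 0.15 (SE, adjusted p = 6.1e-08) at day 4. At day 2 the groups also stood apart, but the difference of 0.20 ± 0.14 (SE, adjusted p = 0.28) did not pass. NDC80, which binds spindle microtubules at the kinetochore, had 152, 138 and 120.2 CPM in HMLE-TWIST1 libraries of day 4, against 19.7, 31.9 and 22.9 CPM in HMLE libraries. At day 2 NDC80 had 126, 119 and 135 CPM in HMLE-TWIST1 libraries, against 104, 110.3 and 98.0 CPM in HMLE libraries. The log2 difference was 2.44 ± 0.15 (SE, adjusted p = 4.4e-08) at day 4 and 0.27 ± 0.15 (SE, adjusted p = 0.15) at day 2.

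KIF20A, a kinesin of the central spindle, had 186, 181 and 162 CPM in HMLE-TWIST1 libraries of day 4, against 18.3, 33.5 and 23.1 CPM in HMLE libraries. At day 2 KIF20A had 160.2, 134 and 192 CPM in HMLE-TWIST1 libraries, against 118, 118 and 123 CPM in HMLE libraries. Of the 7 kinesins all were higher at day 4 and none passed at day 2. TOP2A had 1467, 1141 and 1206 CPM in HMLE-TWIST1 libraries of day 4, against 192, 306 and 233 CPM in HMLE libraries. At day 2 TOP2A had 1144, 954 and 1237 CPM in HMLE-TWIST1 libraries, against 949, 937 and 1065 CPM in HMLE libraries. UBE2C, the ubiquitin-conjugating enzyme of the anaphase-promoting complex, had 59.99, 53.6 and 52.4 CPM in HMLE-TWIST1 libraries of day 4, against 8.03, 17.2 and 11.02 CPM in HMLE libraries. At day 2 UBE2C had 47.5, 40.8 and 55.2 CPM in HMLE-TWIST1 libraries, against 44.3, 52.2 and 52.2 CPM in HMLE libraries. KIF20A, TOP2A and UBE2C had log2 differences of 2.81, 2.36 and 2.21 at day 4, all called. PRC1, a bundler of midzone microtubules, had the smallest adjusted p at day 4, with 316, 275 and 274 CPM in HMLE-TWIST1 libraries, against 53.4, 69.2 and 53.3 CPM in HMLE libraries and a log2 difference of 2.27 ± 0.099 (SE, adjusted p = 7e-11). ECT2, an activator of the RhoA GTPase at the division site, had the smallest difference, with 191, 188 and 172 CPM in HMLE-TWIST1 libraries, against 79.8, 102 and 79.5 CPM in HMLE libraries. Even so its groups did not overlap and the log2 difference was 1.05 ± 0.086 (SE, adjusted p = 4.1e-08). At day 2, NUSAP1, a microtubule stabiliser, had 380.4, 339 and 385 CPM in HMLE-TWIST1 libraries, against 274, 298 and 296 CPM in HMLE libraries (log2 difference 0.33 ± 0.13 SE, adjusted p = 0.049), and the centrosome kinase NEK2 had the lowest value, with 37.97, 40.8 and 48.9 CPM in HMLE-TWIST1 libraries, against 50.1, 55.4 and 56.8 CPM in HMLE libraries and a log2 difference of -0.37 ± 0.22 (SE, adjusted p = 0.2). Same-numbered libraries of the lines deviated together at both days; with the replicate number as a block, 5 genes were higher at day 2 and all 38 at day 4. A fit over all 15 DMSO and 80 nM libraries called 6 higher and 2 lower at day 2. Leaving out any 1 of the 6 DMSO libraries of day 2 left 0 calls there.

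The remaining genes, all called at day 4, had these log2 differences between HMLE-TWIST1 and HMLE cells. Among cyclins and their kinase the values were 2.23 for CCNA2, 1.86 for CCNB2 and 2.24 for CDK1. Among kinases they were 2.05 for AURKA, 1.75 for NEK2, 2.34 for TTK and 2.28 for BUB1; AURKA works at the spindle poles, and TTK and BUB1 start the checkpoint signal at unattached kinetochores. MAD2L1, the checkpoint protein that binds CDC20, differed by 2.05 and BIRC5 by 2.67. At the centromere, the values were 2.39 for CENPA, which marks the site, 1.69 for the motor CENPE, 2.32 for CENPF and 2.11 for NUF2, the partner of NDC80. Of the kinesins, KIF11 and KIF18A, which acts on microtubule ends, differed by 2.16 and 1.98, the microtubule depolymerase KIF2C by 2.19, the chromosome motor KIF4A by 2.17, and KIF14 and KIF23, motors of cytokinesis, by 2.07 and 2.46. Spindle genes differed by 1.82 for TPX2, 2.25 for NUSAP1, 2.02 for DLGAP5, 2.19 for HMMR and 1.99 for ASPM; TPX2 activates AURKA, and DLGAP5 stabilises microtubules at kinetochores. ANLN, an actin-binding scaffold of the contractile ring, differed by 1.98, CDC20 by 2.13 and PTTG1, next to ECT2 the least, by 1.17.

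Other lists of cell division genes were read against 33.5% of all genes called higher and 33.4% called lower at day 4. All 30 other spindle and cytokinesis genes were higher in HMLE-TWIST1 cells, as were 31 of 35 other kinetochore and centromere genes (1 was lower), 17 of 20 condensin, cohesin and separase genes and 9 of 10 genes of the replication origin and clamp (1 was lower). Of 9 transcription factor genes tested, 7 were higher and 1 lower; FOXM1 differed by 2.42 ± 0.12 (SE, adjusted p = 4.2e-10) and MYBL2, which codes for B-MYB, by 2.39 ± 0.15 (SE, adjusted p = 4.5e-08) on the log2 scale. Of 17 anaphase-promoting complex genes 8 were higher and 5 lower, and of 7 CDK inhibitor genes 2 were higher and 4 lower; the shares of 5 in 17 and 2 in 7 are near the background. CDKN1A, which codes for p21, had 193, 186 and 169 CPM in HMLE-TWIST1 libraries, against 666, 674 and 582 CPM in HMLE libraries (log2 difference -1.84 ± 0.074 SE, adjusted p = 1.1e-11). The nuclear RNA MALAT1 had 29380, 28370 and 30410 CPM in HMLE-TWIST1 libraries of day 4, against 122000, 88410 and 100700 CPM in HMLE libraries; at day 2 it had 26730, 30580 and 26950 CPM in HMLE-TWIST1 libraries, against 59590, 43760 and 47300 CPM in HMLE libraries, and its part in the mitosis result was not tested.

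The day 4 and day 2 groups differ in time in culture and in the medium change, and in DMSO also in the length of exposure. In HMLE cells in DMSO all 38 genes fell at day 4 (15.4% of all genes tested were called lower), with a median log2 difference of -2.07. The range was -2.74 (AURKB) to -1.14 (ECT2), and PRC1, at 53.4, 69.2 and 53.3 CPM at day 4 and 202, 209 and 213 CPM at day 2, had the smallest adjusted p (log2 difference -1.82 ± 0.091 SE, adjusted p = 2.1e-09). In HMLE-TWIST1 cells in DMSO none of the 38 passed by limma (0.147% of all genes were called higher and 0.198% lower), none had an unadjusted p under 0.05, and the median was 0.099. The largest positive value there was that of securin, PTTG1, with 177, 144 and 147 CPM at day 4 and 132, 111 and 156 CPM at day 2, and the lowest that of CDC20, the activator of the anaphase-promoting complex, with 42.1, 43.6 and 39.1 CPM at day 4 and 44.4, 41.4 and 48.0 CPM at day 2. Both overlapped between days, with log2 differences of 0.24 ± 0.15 (SE, adjusted p = 0.56) and -0.10 ± 0.20 (SE, adjusted p = 0.89). NUSAP1 had the smallest adjusted p, 0.45 in that test by limma. The difference between the lines in the change from day 2 to day 4 was itself positive for all 38 genes, HMLE-TWIST1 minus HMLE (8.14% of all genes were called), at a median of 2.17 and a range of 1.18 (ECT2) to 2.91 (AURKB). PRC1 had the smallest adjusted p there (1.92 ± 0.13 SE, adjusted p = 2.7e-07).

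In the siRNA experiment mitosis genes of HMLE cells fell again at day 4. Of the 38 genes, 37 fell at day 4 in HMLE scramble cells (20.6% of all genes were called lower; median log2 difference -2.17), and 38 in HMLE knockdown cells (23.4% of all genes; median -2.62). BIRC5 fell furthest in both: it had 4.09, 3.06 and 4.17 CPM in HMLE scramble libraries at day 4 and 30.1, 28.8 and 32.5 CPM at day 2, and 4.799, 4.22 and 3.25 CPM in HMLE knockdown libraries at day 4 and 37.9, 39.4 and 37.4 CPM at day 2. Its log2 differences were -2.98 ± 0.11 (SE, adjusted p = 1.3e-17) in scramble and -3.25 ± 0.11 (SE, adjusted p = 1e-18) in knockdown cells, the days far apart. ECT2 moved least, at 61.1, 55.4 and 54.1 CPM in HMLE scramble libraries of day 4 and 102, 101 and 102 CPM at day 2, and at 74.8, 62.7 and 66.1 CPM in HMLE knockdown libraries of day 4 and 156, 144 and 125 CPM at day 2. The log2 differences of ECT2 were -0.84 ± 0.073 (SE, adjusted p = 3.4e-10) and -1.12 ± 0.073 (SE, adjusted p = 6.8e-13). The smallest adjusted p belonged to KIF20A in scramble cells, with 6.65, 7.52 and 6.42 CPM at day 4 and 45.7, 49.7 and 45.5 CPM at day 2 (log2 difference -2.75 ± 0.063 SE, adjusted p = 1.1e-21). In knockdown cells it belonged to BUB1B, with 11.7, 10.6 and 11.4 CPM at day 4 and 80.3, 78.0 and 74.6 CPM at day 2 (log2 difference -2.83 ± 0.059 SE, adjusted p = 5.9e-23). The days were far apart for both. CENPE, the kinesin that carries chromosomes to the spindle equator, was the gene not called in scramble cells, at 31.4, 3.93 and 23.4 CPM at day 4 and 119.8, 31.9 and 25.5 CPM at day 2, which overlapped (log2 difference -1.67 ± 0.90 SE, adjusted p = 0.15).

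In HMLE-TWIST1 cells 16 of 38 genes fell at day 4 in the scramble group (15.5% of all genes were called lower; median log2 difference -0.27) and 22 in the knockdown group (14.0% of all genes; median -0.45), and none rose. KIF20A had the smallest adjusted p in both, with 152, 154 and 154 CPM in HMLE-TWIST1 scramble libraries of day 4 and 227, 230.0 and 229.6 CPM at day 2 (log2 difference -0.58 ± 0.063 SE, adjusted p = 4.6e-08), and 111, 107 and 114 CPM in HMLE-TWIST1 knockdown libraries of day 4 and 193, 200.3 and 194 CPM at day 2 (log2 difference -0.82 ± 0.063 SE, adjusted p = 5.4e-11). ASPM, a spindle pole protein, had the lowest value in scramble cells, -0.66 ± 0.48 (SE, adjusted p = 0.35), with 294, 495 and 516 CPM at day 4 and 666, 644 and 687 CPM at day 2. NDC80 had the highest, 0.31 ± 0.22 (SE, adjusted p = 0.33). Neither passed, although each day 4 library was below every day 2 library for ASPM and above every one for NDC80. In knockdown cells the lowest value was that of CENPE, -1.57 ± 0.90 (SE, adjusted p = 0.22), with 37.9, 43.3 and 50.9 CPM at day 4 and 99.4, 293 and 75.7 CPM at day 2, and the highest that of CDK1, 0.08 ± 0.11 (SE, adjusted p = 0.65), with 343, 359 and 353 CPM at day 4 and 345, 355 and 301 CPM at day 2. The change from day 2 to day 4 under scramble was higher in HMLE-TWIST1 than in HMLE cells for 34 of 38 genes (16.6% of all genes were called), with a median difference of 1.91 and CCNB1 the firmest at 2.06 ± 0.082 (SE, adjusted p = 2.3e-16). The range was 0.66 (KIF18A) to 2.75 (AURKB), and CENPE, KIF18A, HMMR and ASPM were not called. FOXM1 fell in HMLE cells by 2.25 in DMSO and 2.39 in scramble on the log2 scale, and CDKN1A rose there by 1.82 and 1.68. MALAT1 had 122000, 88410 and 100700 CPM in HMLE DMSO libraries of day 4 and 59590, 43760 and 47300 CPM at day 2, and its part in the fall was not tested. Of the adipocyte markers, FABP4, a fatty acid binding protein, had 156, 117 and 58.6 CPM in HMLE DMSO libraries of day 4 and 26.3, 20.2 and 8.04 CPM at day 2. PLIN1 had 1.47, 0.741 and 0.992 CPM at day 4 and 0.512, 0.343 and 0.974 CPM at day 2, which overlapped. The sum of these 2 genes, nearly all FABP4, was 59.6 to 158 CPM at day 4 and 9.01 to 26.8 CPM at day 2. In scramble libraries of HMLE cells the sum was 379 to 447 CPM at day 4 and 259 to 297 CPM at day 2. These sums did not overlap between days, and their part in the fall was not tested.

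Under scramble siRNA the lines differed at both days. At day 2, 37 of 38 genes were higher in HMLE-TWIST1 than in HMLE cells (35.7% of all genes were called higher), at a median of 3.55-fold. At day 4 all 38 were (37.6% of all genes), at a median of 13.2-fold, or 3.72 on the log2 scale. HMLE scramble cells of day 2 stood below HMLE DMSO cells of day 2, 3061 against 8945 CPM summed, but these groups belong to separately processed parts of the table and were not tested against each other. KIF20A had 227, 230.0 and 229.6 CPM in HMLE-TWIST1 scramble libraries of day 2, against 45.7, 49.7 and 45.5 CPM in HMLE scramble libraries, and had the smallest adjusted p of day 2 (log2 difference 2.33 ± 0.05 SE, adjusted p = 2.1e-17). BUB1B had the smallest of day 4, with 190.4, 175 and 166 CPM in HMLE-TWIST1 scramble libraries, against 10.4, 10.2 and 10.9 CPM in HMLE scramble libraries (log2 difference 4.05 ± 0.071 SE, adjusted p = 1.5e-18). The lines did not overlap for either gene. AURKB was again the widest at day 4, with 44.8, 40.7 and 40.0 CPM in HMLE-TWIST1 scramble libraries, against 1.43, 1.14 and 1.13 CPM in HMLE scramble libraries (log2 difference 4.92 ± 0.16 SE, adjusted p = 6.6e-15), and ECT2 the narrowest at 1.72 ± 0.068 (SE, adjusted p = 1e-13). Those HMLE scramble libraries held only 15, 13 and 10 reads of AURKB. At day 2 the narrowest was PTTG1, with 194, 186 and 179 CPM in HMLE-TWIST1 scramble libraries, against 102, 127 and 120 CPM in HMLE scramble libraries (log2 difference 0.73 ± 0.078 SE, adjusted p = 2.6e-07). The widest was HMMR, a spindle assembly protein, with 175, 184 and 209.7 CPM in HMLE-TWIST1 scramble libraries, against 47.1, 21.1 and 12.3 CPM in HMLE scramble libraries (log2 difference 3.07 ± 0.69 SE, adjusted p = 0.0035). CENPE was not called at day 2, with 219, 107 and 286 CPM in HMLE-TWIST1 scramble libraries, against 119.8, 31.9 and 25.5 CPM in HMLE scramble libraries, which overlapped (log2 difference 2.08 ± 0.90 SE, adjusted p = 0.07). MALAT1 had 19240, 16480 and 22420 CPM in HMLE-TWIST1 scramble libraries of day 2, against 79660, 44750 and 43470 CPM in HMLE scramble libraries. At day 4 MALAT1 had 15300, 21560 and 27360 CPM in HMLE-TWIST1 scramble libraries, against 149400, 67800 and 107800 CPM in HMLE scramble libraries. The lines did not overlap in MALAT1 at either day. The level of genes of low GC content minus that of high GC content, in log2 and relative to the average library, was 0.122, 0.154 and 0.12 in HMLE-TWIST1 scramble libraries of day 2, against -0.279, -0.332 and -0.39 in HMLE scramble libraries. At day 4 it was 0.08, 0.266 and 0.327 in HMLE-TWIST1 scramble libraries, against -0.083, -0.5 and -0.075 in HMLE scramble libraries, where replicate 2 stood apart; without that library all 38 genes were still called higher. With each library's trend over GC content taken out, 37 genes were higher at day 2 (median log2 difference 1.69) and 38 at day 4 (median 3.70). The part of MALAT1 was not tested.

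**Figure D3:**
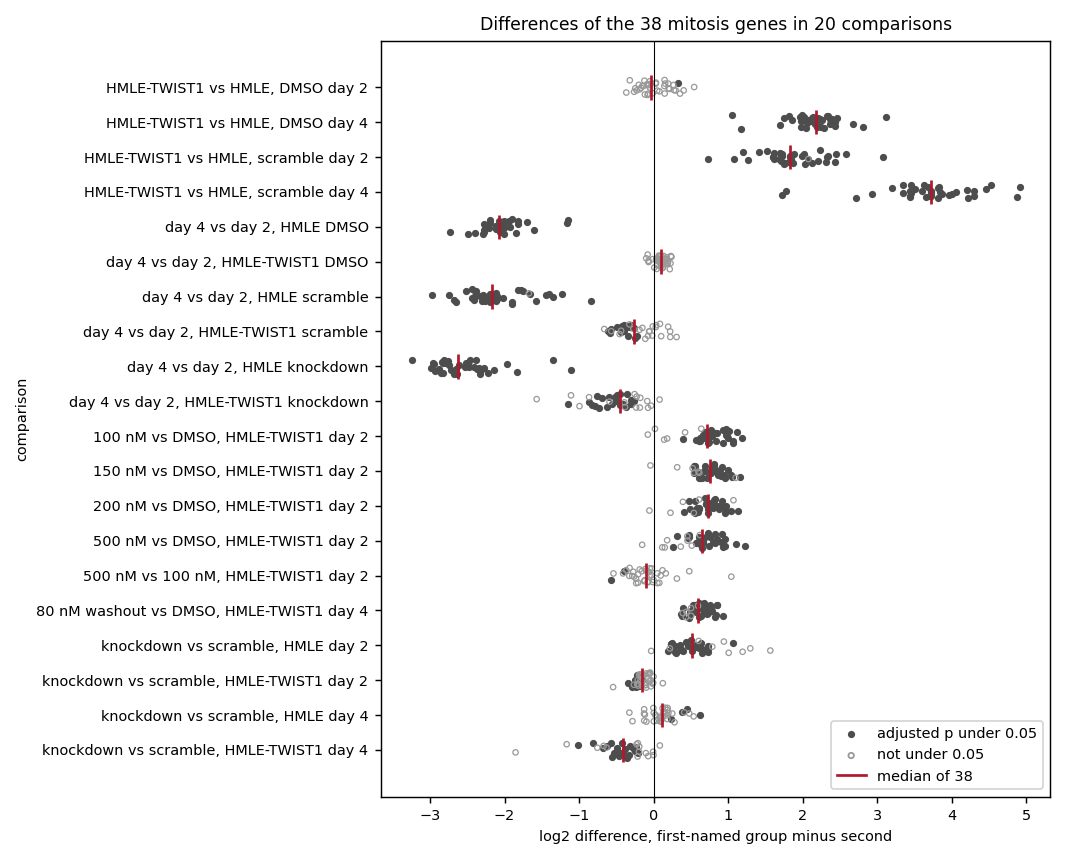
Log2 differences (horizontal axis, first-named group minus second) of the 38 genes in 20 comparisons (rows); filled points passed an adjusted p of 0.05, open points did not, and red lines are medians. Medians run from -2.62 in HMLE knockdown cells over days to 3.72 between lines in scramble cells of day 4.

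Chaetocin was given to HMLE-TWIST1 cells only, and each dose and the washout were compared with DMSO cells of the same line and day. Mitosis genes rose: 32, 31, 32 and 29 of 38 at 100, 150, 200 and 500 nM, while 11.9%, 17.8%, 20.9% and 26.0% of all genes were called higher. After 80 nM and washout 32 of 38 rose (19.4% of all genes), and none of the 38 fell in any of the 5 comparisons. Fewer passed after washout with the replicate number as a block. Median log2 differences were 0.72, 0.76, 0.73, 0.65 and, after washout, 0.60, that is 1.52- to 1.69-fold. Not called were BIRC5, CENPE, NUF2, KIF18A, HMMR and ASPM at 100 nM and BIRC5, CENPE, KIF11, KIF18A, HMMR, ASPM and CDC20 at 150 nM. At 200 nM they were BIRC5, CENPE, KIF11, KIF18A, HMMR and ASPM, and at 500 nM CCNA2, CCNB2, BIRC5, CENPE, KIF11, KIF18A, KIF20A, ASPM and CDC20. The 4 doses share the same 3 DMSO libraries, and these come from a separately processed part of the table, so that a batch difference and the treatment cannot be told apart there. The washout and its DMSO libraries lie in the same part.

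MKI67 had 1467, 1334 and 1495 CPM in DMSO libraries. Under chaetocin MKI67 had 3460, 2484 and 2469 CPM at 100 nM, 3043, 2356 and 2280 CPM at 150 nM, 2843, 2230 and 2098 CPM at 200 nM and 2447, 2116 and 2161 CPM at 500 nM. Every chaetocin library was above every DMSO library, and the log2 differences were 0.93, 0.80, 0.70 and 0.61 in rising order of dose. CCNB1 had 217, 178 and 248 CPM in DMSO libraries. Under chaetocin CCNB1 had 664, 390.1 and 296 CPM at 100 nM, 566, 400.4 and 315 CPM at 150 nM, 529, 386 and 334 CPM at 200 nM and 479, 356 and 357 CPM at 500 nM. All CCNB1 values under chaetocin were above those in DMSO. PLK1 had 75.2, 63.1 and 85.9 CPM in DMSO libraries. Under chaetocin PLK1 had 147, 111 and 96.8 CPM at 100 nM, 140.5, 123 and 89.7 CPM at 150 nM, 127, 106 and 103 CPM at 200 nM and 110.5, 103 and 102 CPM at 500 nM. Both genes were called at every dose, CCNB1 with log2 differences of 0.98 to 0.85 from the lowest to the highest dose and PLK1 with 0.63 to 0.47. AURKB had 35.7, 24.9 and 32.8 CPM in DMSO libraries. Under chaetocin AURKB had 68.1, 49.8 and 46.5 CPM at 100 nM, 63.6, 51.02 and 38.8 CPM at 150 nM, 67.3, 51.2 and 38.8 CPM at 200 nM and 61.7, 49.2 and 42.6 CPM at 500 nM. The DMSO libraries were lowest for AURKB, which was called at every dose. BUB1B had 186, 176 and 204 CPM in DMSO libraries. Under chaetocin BUB1B had 475, 379.5 and 304 CPM at 100 nM, 481, 392 and 324 CPM at 150 nM, 421, 370.4 and 340.0 CPM at 200 nM and 376, 349.8 and 377 CPM at 500 nM. The checkpoint gene BUB1B had the smallest adjusted p at 100, 150 and 200 nM, where its log2 difference was 0.99 ± 0.14 (SE, adjusted p = 0.00019), 1.04 ± 0.14 (SE, adjusted p = 5.6e-05) and 0.96 ± 0.14 (SE, adjusted p = 7.6e-05). NDC80 had 126, 119 and 135 CPM in DMSO libraries. Under chaetocin NDC80 had 157, 240.4 and 244 CPM at 100 nM, 266, 246 and 201 CPM at 150 nM, 246, 255 and 211 CPM at 200 nM and 229, 228 and 234 CPM at 500 nM. NDC80 was called at every dose, and its groups did not overlap.

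KIF20A had 160.2, 134 and 192 CPM in DMSO libraries. Under chaetocin KIF20A had 478, 292 and 243 CPM at 100 nM, 379, 280.3 and 230.4 CPM at 150 nM, 336, 249.9 and 238 CPM at 200 nM and 295, 192 and 201 CPM at 500 nM, and was called at each dose but 500 nM (0.45 ± 0.23 SE, adjusted p = 0.11). TOP2A had 1144, 954 and 1237 CPM in DMSO libraries. Under chaetocin TOP2A had 1891, 1675 and 1769 CPM at 100 nM, 1762, 1627 and 1543 CPM at 150 nM, 1524, 1481 and 1470 CPM at 200 nM and 1446, 1244 and 1399 CPM at 500 nM. TOP2A did not overlap between DMSO and any dose. UBE2C had 47.5, 40.8 and 55.2 CPM in DMSO libraries. Under chaetocin UBE2C had 136, 89.3 and 69.3 CPM at 100 nM, 123, 89.1 and 66.0 CPM at 150 nM, 117, 93.6 and 69.5 CPM at 200 nM and 116, 83.6 and 89.0 CPM at 500 nM. TOP2A and UBE2C were called at all 4 doses, TOP2A with log2 differences of 0.66 at 100 nM and 0.26 at 500 nM, and UBE2C with 0.97 and 0.96. PTTG1, securin, rose most at 100, 150 and 200 nM, with 132, 111 and 156 CPM in DMSO libraries. Under chaetocin PTTG1 had 439.7, 288 and 223 CPM at 100 nM, 379, 299 and 238 CPM at 150 nM, 343, 285 and 263 CPM at 200 nM and 348, 252 and 284 CPM at 500 nM. Its log2 difference was 1.19 ± 0.21 (SE, adjusted p = 0.00084) at 100 nM, 1.16 ± 0.21 (SE, adjusted p = 0.00051) at 150 nM and 1.13 ± 0.21 (SE, adjusted p = 0.00047) at 200 nM. At 500 nM the largest rise was that of HMMR, 1.22 ± 0.46 (SE, adjusted p = 0.037), and the smallest adjusted p that of the kinetochore protein gene CENPF, 0.75 ± 0.11 (SE, adjusted p = 3.8e-05), which had 461, 470.0 and 513 CPM in DMSO libraries and 731, 839 and 940.4 CPM at 500 nM. In HMMR the libraries were 183, 162 and 215 CPM in DMSO and 72.3, 420.2 and 321 CPM at 100 nM, 415, 485 and 329 CPM at 150 nM, 360.1, 515 and 342 CPM at 200 nM and 382, 475 and 485 CPM at 500 nM, so that replicate 1 at 100 nM was below every DMSO library. CENPE had the lowest value at each dose, with 296, 309 and 344 CPM in DMSO libraries. Under chaetocin CENPE had 121, 483 and 478 CPM at 100 nM, 154, 457 and 431 CPM at 150 nM, 146, 464 and 441 CPM at 200 nM and 124, 423 and 471 CPM at 500 nM. Replicate 1 of each dose was below, and replicates 2 and 3 above, every DMSO library, and no CENPE difference passed (-0.078 ± 0.63 SE, adjusted p = 0.95 at 100 nM, -0.043 ± 0.63 SE, adjusted p = 0.97 at 150 nM, -0.057 ± 0.63 SE, adjusted p = 0.96 at 200 nM and -0.15 ± 0.63 SE, adjusted p = 0.86 at 500 nM).

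Between the highest and lowest 48 h doses, 2 of the 38 genes were lower at 500 than at 100 nM and none was higher (7.90% of all genes were called lower and 9.05% higher), with a median log2 difference of -0.11. The lower ones were CCNA2, cyclin A2, with 172, 125 and 127 CPM at 500 nM and 282, 185 and 168 CPM at 100 nM (log2 difference -0.58 ± 0.16 SE, adjusted p = 0.02), and TOP2A (-0.40 ± 0.098 SE, adjusted p = 0.013). Libraries of the doses overlapped for CCNA2 and did not for TOP2A. HMMR had the highest value, 1.04 ± 0.46 (SE, adjusted p = 0.13), and did not pass. Same-numbered dose libraries deviated together, with correlations of 0.59, 0.42 and 0.30; with the replicate number as a block 5 genes were lower. The count was 0 without replicate 2 of 500 nM, and 1 without replicate 1 of 100 nM or replicate 3 of 500 nM. Against DMSO, leaving out replicate 2 of the HMLE-TWIST1 DMSO day 2 libraries brought the counts that rose to 20 at 200 nM and 16 at 500 nM, and leaving out replicate 1 of 500 nM gave 18 at 500 nM.

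After 80 nM for 15 h and washout, MKI67 had 2218, 1935 and 2244 CPM, against 1796, 1342 and 1353 CPM in DMSO libraries, and CCNB1 402, 366 and 342 CPM, against 248, 228 and 210.3 CPM in DMSO libraries. Their log2 differences were 0.54 ± 0.14 (SE, adjusted p = 0.013) and 0.71 ± 0.13 (SE, adjusted p = 0.00098), and the groups did not overlap. PLK1 had 117, 116 and 122 CPM, against 78.1, 73.0 and 62.1 CPM in DMSO libraries, and AURKB 50.3, 47.9 and 48.1 CPM, against 40.7, 32.9 and 31.4 CPM in DMSO libraries. PLK1 passed (0.76 ± 0.18 SE, adjusted p = 0.008) and AURKB did not (0.50 ± 0.27 SE, adjusted p = 0.19), although the groups overlapped for neither gene. BUB1B had 311, 289 and 319 CPM, against 223, 183 and 179 CPM in DMSO libraries, and NDC80 244, 231 and 239 CPM, against 152, 138 and 120.2 CPM in DMSO libraries. KIF20A had 274, 262 and 258 CPM, against 186, 181 and 162 CPM in DMSO libraries, and TOP2A 1768, 1523 and 1629 CPM, against 1467, 1141 and 1206 CPM in DMSO libraries. BUB1B, NDC80 and KIF20A rose (0.67, 0.82 and 0.61 on the log2 scale), and TOP2A was among the 6 not called, with CDK1, AURKB, CENPA, KIF18A and UBE2C. UBE2C had 86.3, 80.9 and 80.5 CPM, against 59.99, 53.6 and 52.4 CPM in DMSO libraries. The smallest adjusted p was that of NEK2, with 83.6, 73.0 and 74.3 CPM, against 48.3, 48.2 and 41.1 CPM in DMSO libraries (log2 difference 0.76 ± 0.12 SE, adjusted p = 0.00025). HMMR rose most, with 395, 389.5 and 416 CPM, against 208, 226 and 202 CPM in DMSO libraries (log2 difference 0.94 ± 0.19 SE, adjusted p = 0.0046), and KIF11, the kinesin that pushes spindle poles apart, had the smallest difference, with 316, 281 and 304 CPM, against 263, 223 and 224 CPM in DMSO libraries (0.37 ± 0.12 SE, adjusted p = 0.036).

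Of the 30 other spindle and cytokinesis genes, 21, 22, 22 and 16 rose at 100, 150, 200 and 500 nM (1 fell at 500 nM) and 25 after washout. Over all genes 11.9%, 17.8%, 20.9% and 26.0% were called higher and 11.8%, 16.5%, 19.1% and 24.7% lower at the doses, and 19.4% higher and 17.2% lower after washout. Of the 35 other kinetochore genes, 17, 14, 16 and 16 rose at the doses (none, 1, 1 and 3 fell) and 24 after washout (1 fell). Of 10 replication origin and clamp genes, 1, 0, 0 and 2 rose and 0, 2, 3 and 3 fell at the doses in the same order, and 5 rose and none fell after washout. FOXM1 did not pass at any dose (log2 differences of 0.49, 0.43, 0.37 and 0.23) and rose after washout (0.54 ± 0.12 SE, adjusted p = 0.0033). MYBL2 had 139, 113 and 127 CPM in DMSO libraries. Under chaetocin MYBL2 had 294, 179 and 168 CPM at 100 nM, 266, 167 and 148 CPM at 150 nM, 277, 165 and 136 CPM at 200 nM and 276, 165 and 146 CPM at 500 nM. It overlapped with DMSO at 200 nM and passed at no dose (log2 differences of 0.69, 0.55, 0.52 and 0.54), and rose after washout (0.58 ± 0.15 SE, adjusted p = 0.011). E2F1, an activator of genes of S phase entry, had 34.2, 22.7 and 28.1 CPM in DMSO libraries. Under chaetocin E2F1 had 71.7, 56.3 and 60.5 CPM at 100 nM, 64.7, 53.5 and 46.6 CPM at 150 nM, 62.0, 56.4 and 45.5 CPM at 200 nM and 60.8, 49.7 and 40.4 CPM at 500 nM. Every dose library was above every DMSO library, and E2F1 rose at each dose (log2 differences of 1.14, 0.93, 0.92 and 0.79) and after washout (0.94 ± 0.13 SE, adjusted p = 6.2e-05). The summed mesenchymal markers stood at 7420 to 16000, 5760 to 13300, 5460 to 11800 and 5760 to 7870 CPM at the doses and 23800 to 28400 CPM in DMSO libraries of day 2, and at 12400 to 18500 CPM after washout, against 23400 to 29600 CPM in its DMSO libraries. FN1 was the largest part of this sum. FN1 and ZEB1 were lower in every dose and washout library than in the DMSO libraries of their day. VIM and CDH2 overlapped with DMSO at every dose, and CDH2 also after washout. VIM was higher after washout, with 3251, 3710 and 3650 CPM, against 2453, 3051 and 2566 CPM in its DMSO libraries. MALAT1 had 13500, 20040 and 19190 CPM after washout, against 29380, 28370 and 30410 CPM in its DMSO libraries, with no overlap. At 100, 150, 200 and 500 nM replicate 1 had 13420, 19230, 18330 and 18340 CPM of MALAT1, below the 26730 to 30580 CPM of DMSO libraries of day 2, while replicates 2 and 3 of the doses had 26520 to 37000 CPM. The part of these markers and of MALAT1 in the rise of mitosis genes was not tested.

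Knockdown was checked first on its targets. SUV39H1 had 4.94, 4.84 and 4.34 CPM in HMLE-TWIST1 knockdown libraries of day 2, against 14.3, 11.8 and 11.96 CPM in scramble libraries, and 3.23, 2.63 and 1.81 CPM in HMLE knockdown libraries, against 7.07, 7.19 and 5.17 CPM in scramble libraries. SUV39H2 had 21.7, 22.1 and 15.9 CPM in HMLE-TWIST1 knockdown libraries of day 2, against 46.8, 45.1 and 45.0 CPM in scramble libraries, and 5.60, 7.12 and 7.09 CPM in HMLE knockdown libraries, against 9.55, 8.64 and 8.35 CPM in scramble libraries. At day 4 SUV39H1 had 4.67, 4.57 and 4.48 CPM in HMLE-TWIST1 knockdown libraries, against 8.63, 9.09 and 10.6 CPM in scramble libraries, and 1.27, 1.41 and 2.77 CPM in HMLE knockdown libraries, against 3.71, 4.28 and 2.25 CPM in scramble libraries. SUV39H2 of day 4 had 24.6, 23.5 and 25.8 CPM in HMLE-TWIST1 knockdown libraries, against 39.7, 44.3 and 44.1 CPM in scramble libraries, and 4.53, 5.06 and 4.88 CPM in HMLE knockdown libraries, against 7.70, 6.12 and 6.76 CPM in scramble libraries. Both targets were lower in every knockdown library except SUV39H1 in HMLE cells of day 4, where the groups overlapped.

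The median knockdown difference of the mitosis genes was below 0 in HMLE-TWIST1 cells and above 0 in HMLE cells. In HMLE cells of day 2, 29 of 38 rose with knockdown (14.1% of all genes were called higher), at a median log2 difference of 0.51. In HMLE-TWIST1 cells 8 of 38 fell at day 2 (8.26% of all genes were called lower and 7.53% higher; median -0.16) and 23 at day 4 (19.0% of all genes; median -0.42). In HMLE cells of day 4, 4 of 38 rose (11.7% of all genes called higher, so this share is near the background) and the median was 0.11. The knockdown effect in HMLE-TWIST1 minus that in HMLE cells was itself tested: it was negative for 29 genes at day 2 (5.83% of all genes were negative and 6.36% positive; median -0.62) and for 18 at day 4 (10.7% of all genes; median -0.46), and positive for none. All 8 genes that fell at day 2 in HMLE-TWIST1 cells were among the 23 of day 4 (8 of 8, and 8 of 23). The same overlap over all genes was not counted, so whether it is particular to mitosis genes was not tested.

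At day 2 MKI67 had 1483, 1390 and 1622 CPM in HMLE-TWIST1 knockdown libraries, against 1557, 1619 and 1601 CPM in scramble libraries. HMLE cells had 592, 615 and 607 CPM in knockdown libraries, against 502, 472 and 485 CPM in scramble libraries. The HMLE groups were apart, with a log2 difference of 0.35 ± 0.05 (SE, adjusted p = 5.8e-05), while the HMLE-TWIST1 difference was -0.098 ± 0.05 (SE, adjusted p = 0.22). CCNB1 of day 2 had 249, 237 and 242 CPM in HMLE-TWIST1 knockdown libraries, against 275, 282 and 274 CPM in scramble libraries. HMLE cells had 102, 99.3 and 100.4 CPM in knockdown libraries, against 80.6, 93.2 and 89.0 CPM in scramble libraries. It fell in HMLE-TWIST1 cells (-0.20 ± 0.051 SE, adjusted p = 0.011) and rose in HMLE cells (0.23 ± 0.051 SE, adjusted p = 0.0022). PLK1 of day 2 had 69.7, 65.4 and 71.9 CPM in HMLE-TWIST1 knockdown libraries, against 79.4, 77.6 and 74.6 CPM in scramble libraries. HMLE cells had 37.1, 37.1 and 36.8 CPM in knockdown libraries, against 31.8, 36.1 and 31.6 CPM in scramble libraries. It rose in HMLE cells (0.19 ± 0.065 SE, adjusted p = 0.035), and in HMLE-TWIST1 cells its value was -0.17 ± 0.065 (SE, adjusted p = 0.088). AURKB of day 2 had 36.1, 37.7 and 37.4 CPM in HMLE-TWIST1 knockdown libraries, against 37.4, 37.4 and 41.7 CPM in scramble libraries. HMLE cells had 12.1, 13.2 and 13.7 CPM in knockdown libraries, against 8.73, 8.15 and 8.69 CPM in scramble libraries. AURKB overlapped between the HMLE-TWIST1 groups and was apart in HMLE cells. BUB1B of day 2 had 205, 215 and 216 CPM in HMLE-TWIST1 knockdown libraries, against 212, 224 and 217 CPM in scramble libraries. HMLE cells had 80.3, 78.0 and 74.6 CPM in knockdown libraries, against 57.4, 53.5 and 55.6 CPM in scramble libraries. Both rose in HMLE cells, by 0.63 and 0.51 on the log2 scale, and neither passed in HMLE-TWIST1 cells. NDC80 of day 2 had 139, 155 and 109 CPM in HMLE-TWIST1 knockdown libraries, against 138, 132 and 146 CPM in scramble libraries. HMLE cells had 53.3, 63.4 and 34.3 CPM in knockdown libraries, against 30.9, 22.4 and 19.1 CPM in scramble libraries. The HMLE-TWIST1 groups overlapped, and the HMLE difference was 1.07 ± 0.27 (SE, adjusted p = 0.016). KIF20A of day 2 had 193, 200.3 and 194 CPM in HMLE-TWIST1 knockdown libraries, against 227, 230.0 and 229.6 CPM in scramble libraries. HMLE cells had 60.4, 56.9 and 59.97 CPM in knockdown libraries, against 45.7, 49.7 and 45.5 CPM in scramble libraries. It had the smallest adjusted p in HMLE-TWIST1 cells (-0.23 ± 0.05 SE, adjusted p = 0.0031) and rose in HMLE cells (0.36 ± 0.05 SE, adjusted p = 3.3e-05). TOP2A of day 2 had 1122, 1296 and 1018 CPM in HMLE-TWIST1 knockdown libraries, against 1269, 1283 and 1343 CPM in scramble libraries. HMLE cells had 519.8, 562 and 393 CPM in knockdown libraries, against 357, 310.1 and 292 CPM in scramble libraries. TOP2A overlapped in HMLE-TWIST1 cells and was higher in every HMLE knockdown library. UBE2C of day 2 had 61.7, 58.8 and 57.0 CPM in HMLE-TWIST1 knockdown libraries, against 68.0, 63.6 and 68.1 CPM in scramble libraries. HMLE cells had 24.7, 25.0 and 27.6 CPM in knockdown libraries, against 19.9, 23.0 and 21.4 CPM in scramble libraries. Each rose in HMLE cells, TOP2A by 0.64 and UBE2C by 0.30, and neither passed in HMLE-TWIST1 cells.

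MAD2L1, the checkpoint protein that binds CDC20, had the smallest adjusted p in HMLE cells and in the difference between lines at day 2. It had 89.9, 90.6 and 84.6 CPM in HMLE-TWIST1 knockdown libraries, against 105, 98.5 and 103 CPM in scramble libraries. HMLE cells had 46.6, 44.8 and 44.9 CPM in knockdown libraries, against 29.5, 31.6 and 32.6 CPM in scramble libraries. MAD2L1 fell in HMLE-TWIST1 cells (-0.22 ± 0.058 SE, adjusted p = 0.015) and rose in HMLE cells (0.57 ± 0.058 SE, adjusted p = 1.4e-06), a difference of -0.79 ± 0.083 (SE, adjusted p = 1.1e-05). HMMR had the highest value in HMLE cells, 1.57 ± 0.69 (SE, adjusted p = 0.13), and the lowest difference between lines, -1.79 ± 0.97 (SE, adjusted p = 0.3), and neither passed. It had 187, 217 and 107 CPM in HMLE-TWIST1 knockdown libraries, against 175, 184 and 209.7 CPM in scramble libraries. HMLE cells had 104, 118 and 24.7 CPM in knockdown libraries, against 47.1, 21.1 and 12.3 CPM in scramble libraries. CDC20 had the lowest HMLE value, -0.033 ± 0.089 (SE, adjusted p = 0.82), and fell in HMLE-TWIST1 cells (-0.29 ± 0.089 SE, adjusted p = 0.033); its difference between lines, -0.26 ± 0.13 (SE, adjusted p = 0.2), was the highest of the 38. It had 43.1, 40.8 and 46.6 CPM in HMLE-TWIST1 knockdown libraries, against 52.3, 52.9 and 53.3 CPM in scramble libraries. HMLE cells had 19.6, 15.9 and 19.1 CPM in knockdown libraries, against 20.03, 19.9 and 17.1 CPM in scramble libraries. The 8 genes that fell in HMLE-TWIST1 cells at day 2 were CCNA2, CCNB1, BIRC5, MAD2L1, CENPA, KIF20A, TPX2 and CDC20. CENPE had the lowest value there, -0.54 ± 0.90 (SE, adjusted p = 0.78), and ECT2 the highest, 0.12 ± 0.073 (SE, adjusted p = 0.3). CENPE had 99.4, 293 and 75.7 CPM in HMLE-TWIST1 knockdown libraries, against 219, 107 and 286 CPM in scramble libraries. HMLE cells had 166, 192 and 34.6 CPM in knockdown libraries, against 119.8, 31.9 and 25.5 CPM in scramble libraries. By role, all 5 mitotic kinase genes and all 4 cyclin and CDK1 genes rose in HMLE cells, and 1 of the 5 kinetochore genes did (NDC80). Not called there were CENPA, CENPE, CENPF, NUF2, KIF14, KIF18A, HMMR, ASPM and CDC20. The count of 8 in HMLE-TWIST1 cells was 3 with scaling by total reads, and among fits with a library left out it was 2 without scramble replicate 1, and 4 without scramble replicate 2, scramble replicate 3 or knockdown replicate 2.

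**Figure D4:**
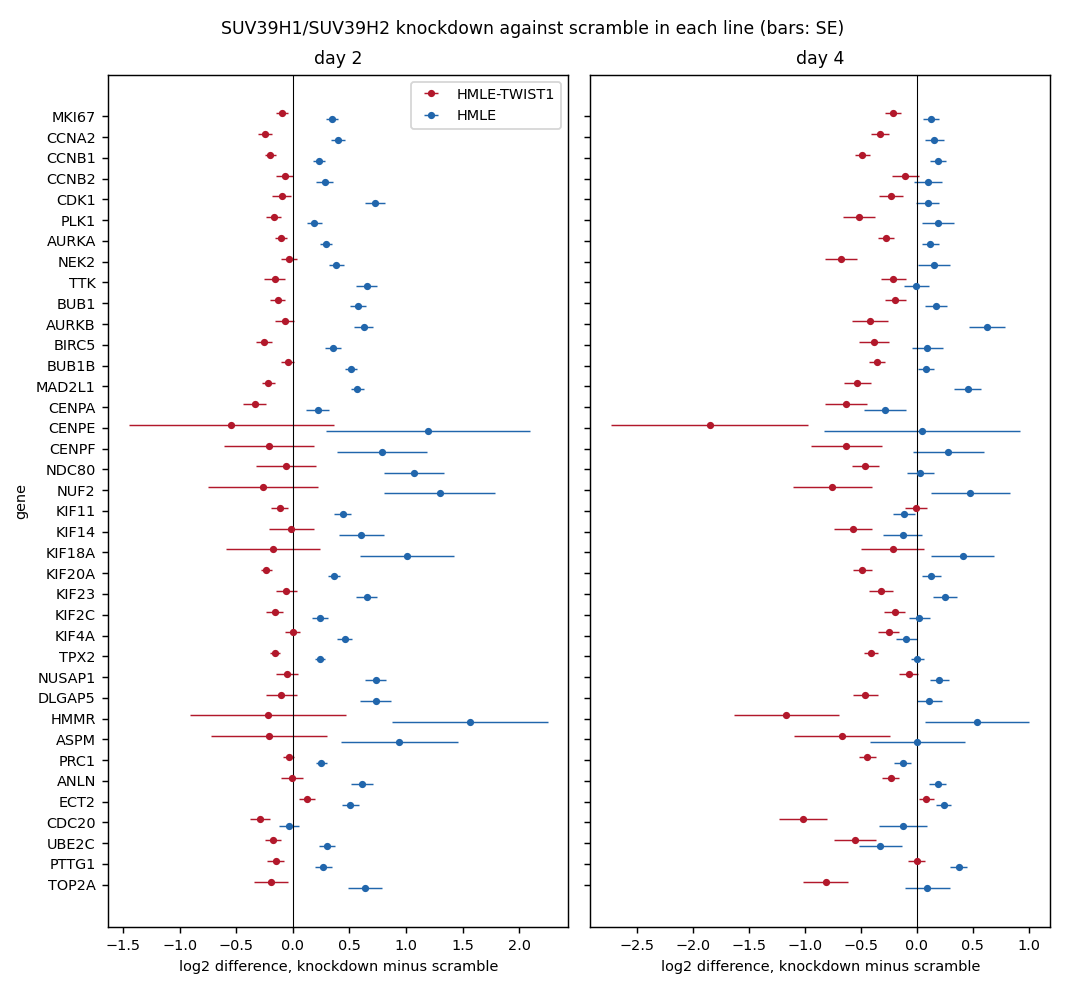
Log2 difference of knockdown minus scramble (horizontal axis) for each of the 38 genes (rows) at day 2 (left panel) and day 4 (right panel); points are limma estimates with SE bars, red HMLE-TWIST1 and blue HMLE. Medians are -0.16 in HMLE-TWIST1 and 0.51 in HMLE cells at day 2, and -0.42 in HMLE-TWIST1 and 0.11 in HMLE cells at day 4; CENPE, HMMR and ASPM have the long bars.

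At day 4 MKI67 had 1164, 1133 and 1052 CPM in HMLE-TWIST1 knockdown libraries, against 1342, 1244 and 1265 CPM in scramble libraries. HMLE cells had 107, 104 and 86.4 CPM in knockdown libraries, against 93.0, 90.0 and 85.2 CPM in scramble libraries. The HMLE-TWIST1 groups were apart for MKI67, and the HMLE groups overlapped. CCNB1, of the smallest adjusted p in HMLE-TWIST1 cells and in the difference between lines, had 151, 159 and 160.3 CPM in HMLE-TWIST1 knockdown libraries, against 223, 219.6 and 211 CPM in scramble libraries. HMLE cells had 20.7, 17.6 and 18.2 CPM in knockdown libraries, against 16.4, 17.2 and 15.4 CPM in scramble libraries. MKI67 fell in HMLE-TWIST1 cells by 0.22 on the log2 scale, and CCNB1 by 0.49 with an adjusted p of 2.8e-05 by limma. The difference between lines for CCNB1 was -0.68 ± 0.10 (SE, adjusted p = 0.00011). PLK1 of day 4 had 40.2, 44.6 and 43.2 CPM in HMLE-TWIST1 knockdown libraries, against 62.9, 55.7 and 63.6 CPM in scramble libraries. HMLE cells had 8.96, 8.06 and 5.74 CPM in knockdown libraries, against 5.89, 5.95 and 7.77 CPM in scramble libraries. PLK1 fell in HMLE-TWIST1 cells (-0.52 ± 0.14 SE, adjusted p = 0.008) and overlapped in HMLE cells. AURKB of day 4 had 32.8, 31.1 and 30.6 CPM in HMLE-TWIST1 knockdown libraries, against 44.8, 40.7 and 40.0 CPM in scramble libraries. HMLE cells had 2.63, 1.97 and 1.53 CPM in knockdown libraries, against 1.43, 1.14 and 1.13 CPM in scramble libraries. AURKB fell in HMLE-TWIST1 cells (-0.42 ± 0.16 SE, adjusted p = 0.049) and rose most in HMLE cells (0.63 ± 0.16 SE, adjusted p = 0.0079). The HMLE values rest on few reads, 29, 21 and 16 in knockdown and 15, 13 and 10 in scramble libraries. BUB1B of day 4 had 142, 140.3 and 137 CPM in HMLE-TWIST1 knockdown libraries, against 190.4, 175 and 166 CPM in scramble libraries. HMLE cells had 11.7, 10.6 and 11.4 CPM in knockdown libraries, against 10.4, 10.2 and 10.9 CPM in scramble libraries. The HMLE-TWIST1 groups were apart for BUB1B. NDC80 of day 4 had 119.8, 135 and 125 CPM in HMLE-TWIST1 knockdown libraries, against 149.8, 186 and 182 CPM in scramble libraries. HMLE cells had 10.2, 8.16 and 10.0 CPM in knockdown libraries, against 9.69, 7.52 and 10.5 CPM in scramble libraries. Both fell in HMLE-TWIST1 cells, by 0.35 and 0.46 on the log2 scale, and overlapped in HMLE cells. KIF20A of day 4 had 111, 107 and 114 CPM in HMLE-TWIST1 knockdown libraries, against 152, 154 and 154 CPM in scramble libraries. HMLE cells had 7.24, 7.03 and 8.51 CPM in knockdown libraries, against 6.65, 7.52 and 6.42 CPM in scramble libraries. KIF20A was lower in every HMLE-TWIST1 knockdown library and overlapped in HMLE cells. TOP2A of day 4 had 751, 791 and 843 CPM in HMLE-TWIST1 knockdown libraries, against 1170, 1462 and 1543 CPM in scramble libraries. HMLE cells had 77.4, 65.8 and 53.1 CPM in knockdown libraries, against 76.7, 46.2 and 60.9 CPM in scramble libraries. KIF20A fell in HMLE-TWIST1 cells (-0.49 ± 0.085 SE, adjusted p = 0.00018), and so did TOP2A (-0.81 ± 0.20 SE, adjusted p = 0.011). UBE2C of day 4 had 45.6, 44.4 and 45.7 CPM in HMLE-TWIST1 knockdown libraries, against 63.8, 70.9 and 63.3 CPM in scramble libraries. HMLE cells had 5.25, 4.22 and 2.58 CPM in knockdown libraries, against 5.42, 4.02 and 5.18 CPM in scramble libraries. It fell in HMLE-TWIST1 cells (-0.56 ± 0.19 SE, adjusted p = 0.031) and had the lowest value in HMLE cells (-0.33 ± 0.19 SE, adjusted p = 0.24).

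The genes that rose in HMLE cells at day 4 were AURKB, MAD2L1 (0.45 ± 0.12 SE, adjusted p = 0.0093), ECT2 (0.24 ± 0.068 SE, adjusted p = 0.015) and PTTG1, which had the smallest adjusted p (0.37 ± 0.076 SE, adjusted p = 0.0013) and 52.8, 55.4 and 59.9 CPM in HMLE knockdown libraries, against 46.1, 37.6 and 44.9 CPM in scramble libraries. In HMLE-TWIST1 cells the 23 that fell held MKI67, TOP2A, both genes of the passenger complex and both of the checkpoint, 4 of 7 kinesins, 3 of 5 kinases, 3 of 6 spindle genes, 2 of 4 cyclin and CDK1 genes, 2 of 5 kinetochore genes, 2 of 3 ubiquitination and securin genes, and ANLN of the 2 cytokinesis genes. CDC20 fell furthest among the genes called, with 21.2, 20.1 and 17.3 CPM in HMLE-TWIST1 knockdown libraries, against 42.0, 40.5 and 35.3 CPM in scramble libraries (log2 difference -1.02 ± 0.21 SE, adjusted p = 0.0013), and NEK2 fell by 0.68. Among the others that fell, the log2 differences were -0.33 for CCNA2, -0.38 for BIRC5, -0.63 for CENPA, -0.41 for TPX2, -0.57 for KIF14, -0.46 for DLGAP5 and -0.28 for AURKA. CENPE had the lowest value, -1.85 ± 0.88 (SE, adjusted p = 0.14), with 37.9, 43.3 and 50.9 CPM in HMLE-TWIST1 knockdown libraries, against 56.0, 241 and 286 CPM in scramble libraries, and did not pass. ECT2 had the highest, 0.083 ± 0.068 (SE, adjusted p = 0.37), with 202, 202 and 197 CPM in HMLE-TWIST1 knockdown libraries, against 178, 195 and 190.0 CPM in scramble libraries. In the difference between lines at day 4, CENPE was lowest at -1.90 ± 1.24 (SE, adjusted p = 0.33) and KIF11 highest at 0.11 ± 0.14 (SE, adjusted p = 0.62). The 23 of HMLE-TWIST1 cells became 10 without scramble replicate 3, 12 without scramble replicate 2, and 11, 15 and 14 without knockdown replicates 1, 2 and 3. The 18 of the difference between lines became 11 without HMLE-TWIST1 knockdown replicate 1, and the 4 of HMLE cells became 7 without HMLE scramble replicate 1 or HMLE knockdown replicate 3.

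Of the 30 other spindle and cytokinesis genes, 1 fell with knockdown in HMLE-TWIST1 cells at day 2 (8.26% of all genes were called lower, so this share is not above the background) and 11 at day 4 (19.0% of all genes), and none rose. In HMLE cells 19 rose and none fell at day 2 (14.1% of all genes higher and 14.7% lower), and 6 rose and 2 fell at day 4 (11.7% and 14.4%). Of 10 replication origin and clamp genes, 4 rose and none fell in HMLE-TWIST1 cells at day 4 (19.0% of all genes were called higher). MYBL2 fell in HMLE-TWIST1 cells at day 4 (-0.50 ± 0.12 SE, adjusted p = 0.0044), where FOXM1 had a value of -0.055 ± 0.12 (SE, adjusted p = 0.75). FOXM1 rose in HMLE cells at day 2 (0.26 ± 0.076 SE, adjusted p = 0.017). CDKN2B, which codes for the cyclin-dependent kinase inhibitor p15, fell with knockdown in HMLE-TWIST1 cells (-0.52 at day 2 and -0.81 at day 4, log2) and in HMLE cells (-1.30 and -0.31). CDKN1A fell in HMLE cells (-0.22 ± 0.059 SE, adjusted p = 0.011 at day 2 and -0.54 ± 0.064 SE, adjusted p = 6.2e-06 at day 4). In HMLE-TWIST1 libraries of day 2 CDKN1A was higher with knockdown, at 112, 107 and 108 CPM, against 102.5, 96.9 and 95.2 CPM in scramble. At day 4 these HMLE-TWIST1 groups overlapped. Summed mesenchymal markers were 8920 to 9120 CPM in HMLE-TWIST1 knockdown libraries of day 4, against 18500 to 20100 CPM in scramble libraries. CDH2 alone of these was higher there, with 76.4, 80.8 and 85.9 CPM, against 68.6, 62.0 and 65.8 CPM. Summed epithelial markers were 6500 to 7040 CPM in HMLE knockdown libraries of day 2, against 11200 to 11700 CPM in scramble libraries. EPCAM alone of these was higher there, with 63.1, 64.9 and 59.9 CPM, against 37.8, 42.55 and 43.8 CPM. At day 4 the epithelial sum was the higher with knockdown in HMLE cells, 7520 to 8440 CPM, against 6020 to 7010 CPM in scramble libraries. CDH1 alone of these was lower there, with 682, 602 and 674 CPM, against 693, 816 and 781 CPM. KRT14 overlapped, and KRT5, EPCAM and TP63 were higher in every knockdown library. FABP4 had 119, 134 and 126 CPM in HMLE knockdown libraries of day 2, against 297, 258 and 287 CPM in scramble libraries, and 222, 231 and 279 CPM in HMLE knockdown libraries of day 4, against 436, 379 and 446 CPM in scramble libraries. Their part in the mitosis results was not tested.

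The spread between libraries was uneven over the 38 genes. All 38 have a transcript in the GENCODE set, whose longest forms ranged from 35.28% GC (CENPE) to 57.91% GC (CDC20). The 8 of lowest GC were CENPE, HMMR, CDK1, KIF18A, ASPM, ECT2, KIF14 and KIF11. In the siRNA duplex libraries of day 2 the median SE of a log2 difference was 0.306 over these 8 and 0.071 over the other 30, and at day 4 it was 0.226 and 0.109. In the DMSO and washout libraries of day 4 it was 0.154 and 0.148. The split has exceptions: ECT2, of the 8, had 102, 101 and 102 CPM in HMLE scramble libraries of day 2. NUF2 and CENPF, outside the 8, had an SD there of 52.5% and 47.6% of the mean. Knockdown in HMLE cells of day 2 gave a median log2 difference of 0.835 over the 8 (3 called) and 0.392 over the other 30 (26 called). Over genes of every kind, the low-GC minus high-GC level of a library, in log2 and relative to the average library, was 0.158, 0.251 and -0.13 in HMLE knockdown libraries of day 2, against -0.279, -0.332 and -0.39 in scramble libraries. It was -0.284 in replicate 1 of 100 nM, against 0.058 and 0.024 in replicates 2 and 3. In replicate 1 of 150, 200 and 500 nM it was -0.004, -0.079 and -0.059. Replicates 2 and 3 of these 3 doses had 0.044 to 0.148. Its part in the low CENPE of replicate 1 at every dose was not tested. With each library's trend over GC content taken out, the count that rose with knockdown in HMLE cells of day 2 was 28 of 38 with a median of 0.39, and that at day 4 was 8.

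**Figure D5:**
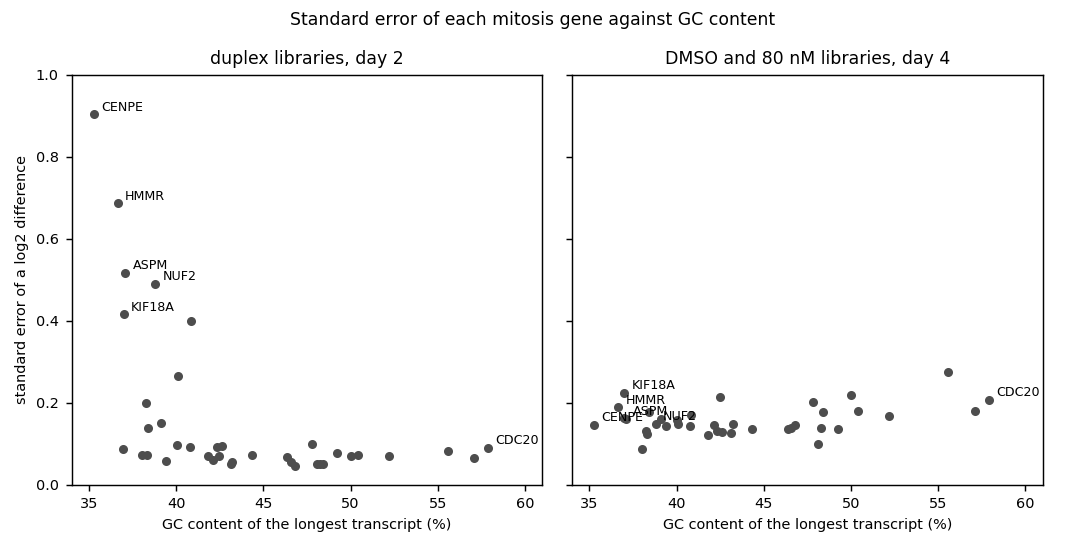
Standard error of a log2 difference (vertical axis) of each of the 38 genes against the GC content of its longest transcript in percent (horizontal axis), in the siRNA duplex libraries of day 2 (left) and the DMSO and 80 nM libraries of day 4 (right); points are genes. CENPE, at 35.28% GC, stands at 0.90 in the left panel and 0.15 in the right.

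Genes outside the 38 were ranked by the correlation of their log2 CPM with the mean of the 38 over the 24 siRNA duplex libraries. The libraries of the lines form separate clusters and share the days, so the values are a description, given over all and within each line. The 10 likest were CASC5 (a kinetochore scaffold), CEP55, ARHGAP11A, CDCA8 (of the chromosomal passenger complex), DEPDC1, NCAPG (of condensin), SPAG5, KPNA2, GAS2L3 and RRM2 (a subunit of ribonucleotide reductase), with r from 0.9978 for CASC5 to 0.9928 for RRM2. Within the 12 HMLE-TWIST1 and the 12 HMLE libraries r was 0.973 and 0.995 for CASC5, and 0.727 and 0.988 for RRM2. FOXM1 had 0.989 over the 24, 0.698 in HMLE-TWIST1 libraries and 0.976 in HMLE libraries, and CDKN1A had -0.96, 0.66 and -0.971 in the same order. The sign for CDKN1A was thus opposite in the lines. Among the 38, the least like the mean of the others were CENPE (0.812), HMMR (0.956), KIF18A (0.96), NUF2 (0.965) and ASPM (0.967). In HMLE-TWIST1 libraries alone the lowest was CDK1 at 0.111, followed by ECT2 at 0.369 and NDC80 at 0.407; in HMLE libraries these had 0.984, 0.969 and 0.963.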

How the data were processed

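Total RNA from mammary epithelial cell lines was extracted with a phenol reagent and columns, freed of ribosomal RNA and sequenced from strand-marking libraries, per the labels' protocols. The submitters' processing notes name STAR, HTSeq, hg19 and GRCh37 without roles or versions. The deposited table holds log2 RPKM values that the authors made with an offset, in 3 separately processed parts: 15 DMSO and 80 nM libraries, 24 siRNA libraries and 12 libraries at 100 to 500 nM. A second deposited table of 81 columns was not used, because its columns could not be tied to samples. Every value was a whole number of reads (tolerance 0.0001) once the offset, gene length and library size were taken out, and these reads were used here.

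Library sizes were adjusted with a trimmed mean of the log ratios (30% and 5% trimmed), turned into log2 CPM with a pseudocount of 2 reads, and tested with limma 3.58.1 (R 4.3.3, statmod 1.5.0) with an intensity trend and robust variances. Genes needed the equivalent of 10 reads in 3 libraries and 15 reads in total. The 24 comparisons came from 6 fits: day 2 DMSO and doses (18 libraries, 18801 genes), day 4 DMSO and 80 nM (9, 17585), DMSO over days (12, 17680), siRNA day 2 (12, 17888), siRNA day 4 (12, 17985) and siRNA over days (24, 18739). P-values were adjusted over all genes of a fit by Benjamini and Hochberg, with a threshold of 0.05, and every adjusted p in the text is limma's. Differences are log2, first group minus second, and are understated for low genes by the pseudocount. The method was tested on simulated data.

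The 38 members and the other lists were chosen with earlier results of these data known. Genes named are 9 members (MKI67, CCNB1, PLK1, AURKB, BUB1B, NDC80, KIF20A, TOP2A and UBE2C), those of largest rise, largest fall and smallest adjusted p in each comparison, and members against the majority. Replicates of a group differed beyond sampling noise in all 51 pairs (chi-square per gene of 2.14 to 40.7). Same-numbered libraries deviated together in 3 comparisons: between lines in DMSO at day 2 (correlations of 0.14, 0.17 and 0.18) and at day 4 (0.16, 0.19 and 0.11), and between 500 and 100 nM (0.59, 0.42 and 0.30). Alternatives were other scalings, a pseudocount of 0.5 reads, no filter, precision weights, a replicate block, other sets of libraries, the deposited values, each library left out and, chosen after seeing the data, a correction for GC content, the dose libraries alone, and fits of 1 line alone. GC content came from the longest GENCODE transcript.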

Additional observations from a re-analysis of the deposited data

Results flagged for a closer look

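Mitosis genes differed between the lines in how they changed, by a test of the difference itself, in 4 comparisons. The change from day 2 to day 4 differed, HMLE-TWIST1 minus HMLE, for 38 of 38 genes in DMSO (8.14% of all genes were called upward; median log2 difference 2.17) and for 34 of 38 under scramble siRNA (16.6% of all genes; median 1.91), upward for every gene called. The change with SUV39H1/SUV39H2 knockdown differed for 29 of 38 genes at day 2 (5.83% of all genes were called downward; median -0.62) and for 18 of 38 at day 4 (10.7% of all genes; median -0.46), always downward among the genes called. With 1 library left out, the counts were 38 in DMSO over days in every such fit, 32 to 34 under scramble over days, 21 to 31 with knockdown at day 2 and 11 to 21 at day 4.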

How the results depend on the processing

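Directions of single genes were checked for called members named throughout and those of largest rise, largest fall and smallest adjusted p. None of these reversed, but 53 of their values under other settings and 134 with a library left out no longer passed. Against the counts reported, 225 counts under other settings were within 1.5 times and 17 were not, and with a library left out 144 were and 24 were not. The line comparison in DMSO at day 2, with 1 call, had 0 by median of ratios, by total reads and with no filter, 8 over all libraries of its part, 9 on the deposited values and 3 with the GC correction and replicate block. The 2 genes lower at 500 than at 100 nM became 0 by total reads, 1 on the deposited values and 1 with the dose libraries alone. Knockdown in HMLE-TWIST1 cells at day 2, with 8 calls, had 3 by total reads and 4 over all siRNA libraries. Knockdown in HMLE cells at day 4, with 4 calls, had 2 in HMLE libraries alone, 8 with the GC correction and 9 with the GC correction and replicate block. The cause of these moves was not tested.

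With the replicate number as a block, the DMSO day 2 line comparison had 5 calls and 500 against 100 nM had 5, or 12 with the dose libraries alone. The block moved no other count by over 1.5 times. After washout it gave 24. Comparisons with any correlation of 0.1 or below were not counted as paired (correlations of -0.27 to 0.43). Whether the shared number marks pairs in them is not known. Washout against DMSO was among these, with correlations of 0.41, 0.42 and 0.05. Each washout library deviated most like the DMSO library of its own number. The same held for each day 4 library of HMLE DMSO and of HMLE knockdown cells against day 2. These correlations were 0.21, 0.14 and 0.09 in DMSO and 0.06, 0.06 and 0.03 in knockdown cells. The reverse match, from DMSO or day 2 libraries, was not checked.

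With a library left out, the counts ranged over 0 to 0 for lines in DMSO at day 2, 23 to 33, 21 to 34, 20 to 32 and 16 to 29 at 100, 150, 200 and 500 nM, 0 to 3 for 500 against 100 nM and 23 to 32 after washout. They ranged over 24 to 33 and 2 to 7 for knockdown at day 2 in HMLE and in HMLE-TWIST1 cells, 3 to 7 and 10 to 16 at day 4, and 21 to 31 and 11 to 21 for the difference between lines. Over days they were 13 to 15 in HMLE-TWIST1 scramble and 19 to 25 in HMLE-TWIST1 knockdown cells, 35 to 37 in HMLE scramble and 37 to 38 in HMLE knockdown cells, and 32 to 34 for the scramble difference between lines.

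Scaling by total reads moved the median of all genes by up to 0.376 (log2, lines under scramble at day 4), where the members' median was 4.08, and called 9111 genes higher and 4814 lower, against 6762 and 6622. For lines in DMSO at day 4 it called 7685 higher and 4522 lower (5890 and 5879 as reported), for 100 nM 3309 and 1259 (2231 and 2222), for 500 nM 6657 and 3028 (4889 and 4652). In HMLE-TWIST1 scramble cells over days it called 1 of the 38 genes higher and 13 lower.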
